A study of Homo sapiens with 4 samples.

Results

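The BCL2 family of apoptosis regulators was examined in the human cell line BICR10, which derives from a head and neck cancer, by taking the count rows whose gene symbol was one of 10 members out of 60623 genes listed. The members were 3 anti-apoptotic genes (BCL2, BCL2L1, MCL1), 2 effectors (BAX, BAK1) and 5 BH3-only genes (BBC3, PMAIP1, BCL2L11, BID, BAD), and each had a single row. RNA-seq libraries came from cells transduced by lentivirus with a control hairpin (shControl, 2 libraries) or with a hairpin against YEATS2 (shYEATS2, 2 libraries), and the 4 libraries shared the line, the lentiviral transduction and the puromycin selection. YEATS2 encodes a reader of histone acylation, and the comparison asks how the mRNA of the family differed once it was silenced. The sources used here do not say which YEATS2 hairpin each shYEATS2 library carried, nor whether the 2 libraries of a condition came from separate cultures. The study describes its data in general as biological replicates, without stating it for these libraries. Each p-value rests on the spread between these libraries, which may be technical. In the tests of genes, that spread is estimated with variance shared across genes.

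Proteins of this family decide whether the outer mitochondrial membrane is breached during apoptosis. BAX and BAK1 form the pores that release cytochrome c, the anti-apoptotic members BCL2, BCL-XL (the main product of BCL2L1) and MCL1 hold them back, and the BH3-only proteins are sensors that bind the anti-apoptotic members or engage the effectors directly. Much of this control is exerted on the proteins (phosphorylation, cleavage, degradation, location) or through splicing, none of which a count per gene records.

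The 4 libraries held between 11334133 and 47297970 counts on genes, and both shYEATS2 libraries were the shallower ones. After random thinning of the deeper libraries to the total of the shallowest, each of the 10 members kept its call or lack of one. The level of YEATS2 was 66.1 and 66.7 CPM (counts scaled to a common library size after TMM normalization) in shControl and 29.2 and 29.1 CPM in shYEATS2. The log2 fold change was thus −1.19 (standard error, SE, 0.08). The label of the line was also set beside cell type markers. Of 12 markers of squamous epithelium, TP63 had at most 3 counts and KRT17 at most 15 counts in a library, whereas SFN had 130 ± 0.189 and 131 ± 7.32 CPM (SD, n = 2 each) and was not called. KRT6A fell from 56.6 ± 2.24 to 1.79 ± 0.583 CPM and KRT5 from 15.7 ± 1.04 to 1.19 ± 0.234 CPM, while CDH1 rose from 0.335 ± 0.025 to 2.48 ± 0.510 CPM (SD, n = 2 each). The summed level of the list was 231 and 233 CPM in shControl and 164 and 150 CPM in shYEATS2 (of 10 tested, 1 higher and 6 lower). The 12 fibroblast markers, with collagens among them, summed to 9372 and 9364 CPM in shControl and to 4437 and 4170 CPM in shYEATS2 (of 11 tested, 1 higher and 9 lower). The 5 endothelial markers summed to 35.6 and 36.6 CPM against 18.9 and 20.2 CPM (of 3 tested, 1 higher and 1 lower), and KDR made up most of the sum. Of 6 leukocyte markers, CD3E and CD68 were at 0 in every library, PTPRC had at most 5 counts, and the only one tested, CD14, was lower, with 79 and 58 counts in shControl and 14 and 14 counts in shYEATS2 (log2 fold change −1.08, adjusted p = 0.010). The squamous and fibroblast sums, KDR and CD14 were lower in shYEATS2, and their part in the results for the family was not tested.

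All 10 members had enough counts for a test, with between 64 and 10526 counts per library. Of these, 4 were higher in shYEATS2 (BCL2L1, MCL1, BBC3, PMAIP1) and 2 were lower (BCL2L11, BAD), where a call means that the quasi-likelihood test of edgeR, adjusted over the 17058 tested genes, gave a p under 0.05. Among all tested genes 22.6% were called higher and 23.6% lower, together 46.2%, so that a call was common in this comparison and 6 of 10 is not far from that share. The members had a median log2 fold change of 0.12, beside −0.01 over all tested genes, and the median size of the change regardless of sign was 0.26 for the members and 0.31 for all. Scaling by library totals alone raised the median of all tested genes by 0.13 on the log2 scale and gave 5441 higher and 2567 lower genes in place of 3857 and 4019. Small changes of members are to be read against that shift. In bulk RNA, a lower share of cells with a transcript and less of it per cell cannot be told apart.

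**Figure D1:**
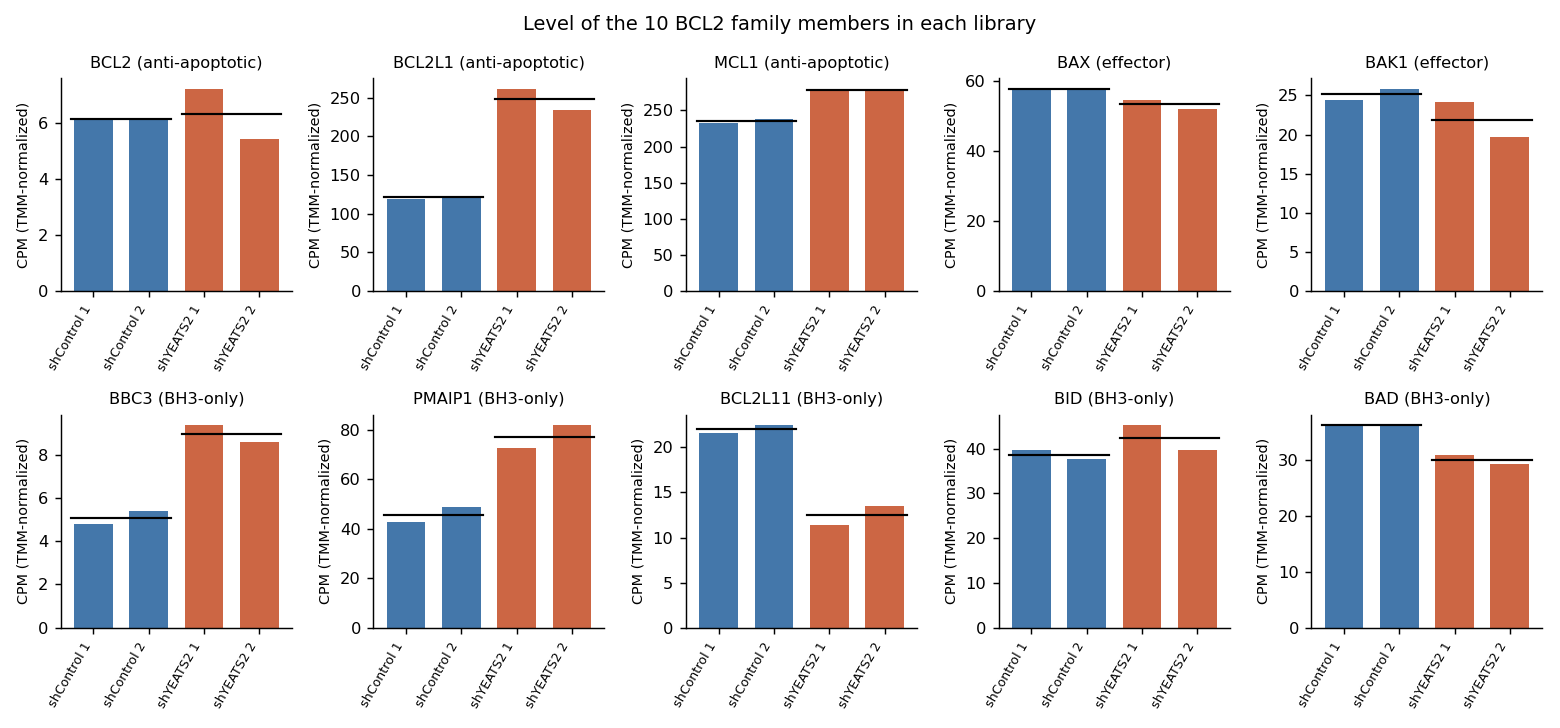
Level of each of the 10 members in the 4 libraries, in TMM-normalized CPM on linear axes that start at 0 (blue, shControl; orange, shYEATS2); each bar is 1 library and the black line is the mean of 2. BCL2L1, PMAIP1 and BBC3 stand higher in both shYEATS2 libraries, BCL2L11 stands lower in both, and the shYEATS2 bars of BCL2 lie on either side of shControl.

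BCL2L1 rose about 2-fold, the largest change among the 10 members. This gene on the minus strand of chromosome 20 (GRCh38, 31664452 to 31723989) gives BCL-XL and, by alternative splicing, the short pro-apoptotic BCL-XS, which these counts cannot separate. Its level was 119 and 122 CPM in shControl and 262 and 233 CPM in shYEATS2. Both shYEATS2 libraries lay far above both controls. The fitted change was 2.06-fold (95% interval 1.89 to 2.24), with a log2 fold change of 1.04, an SE of 0.06 and an adjusted p of 3.9e-23, and 6.62% of the tested genes had a larger rise. The antisense noncoding gene ABALON shares 1735 exon bases with BCL2L1, or 41.3% of its exon length. ABALON had at most 66 counts in a library against at least 2750 for BCL2L1, and was itself called higher (log2 fold change 0.79, SE 0.29, adjusted p = 0.020).

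MCL1 (chromosome 1, minus strand, 150560895 to 150579738) encodes a short-lived anti-apoptotic protein. The libraries had 232 and 238 CPM in shControl and 278 and 280 CPM in shYEATS2. Replicates were close and the conditions did not overlap, but the rise was small, at 1.19-fold (95% interval 1.09 to 1.29; log2 fold change 0.25, SE 0.06, adjusted p = 3.5e-04). The call was kept under each of the 11 alternatives of the analysis, with log2 fold changes from 0.20 to 0.38. BCL2, the founding member of the family, is on the minus strand of chromosome 18 (63123346 to 63320128) and had 6.13 and 6.14 CPM in shControl and 7.22 and 5.43 CPM in shYEATS2. Its shYEATS2 libraries lay on either side of the controls, and the difference of 0.09 on the log2 scale (95% interval −0.22 to 0.40) was not called. With 64 counts in the shallowest library, changes between 0.860-fold and 1.32-fold could not be told apart.

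Neither effector was called, by edgeR or by DESeq2. BAX (chromosome 19, plus strand, 48954815 to 48961798), which moves from the cytosol into the mitochondrial membrane when activated, had 57.4 and 57.8 CPM in shControl and 54.6 and 52.0 CPM in shYEATS2. BAK1 (chromosome 6, minus strand, 33572547 to 33580293), which resides in that membrane, had 24.4 and 25.9 CPM in shControl and 24.2 and 19.7 CPM in shYEATS2. Its pseudogene BAK1P1 had at most 6 counts in a library. For both effectors the shYEATS2 libraries lay below the controls, by little. The log2 fold change was −0.11 for BAX (SE 0.07, 95% interval −0.25 to 0.04, adjusted p = 0.233) and −0.17 for BAK1 (SE 0.10, 95% interval −0.36 to 0.02, adjusted p = 0.141). BAX turned to 0.028 with library totals alone. BAK1 rested on single libraries, since without shYEATS2 replicate 1 its log2 fold change was −0.37 and was called (adjusted p = 0.0036), and without shYEATS2 replicate 2 it was −0.062.

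The BH3-only genes spread in both directions. PMAIP1 encodes NOXA, which binds MCL1 in preference to other anti-apoptotic members and promotes its degradation, and it lies on the plus strand of chromosome 18 (59899996 to 59904305). Its level was 42.7 and 48.8 CPM in shControl and 72.8 and 82.0 CPM in shYEATS2. The conditions were well apart, with a rise of 1.68-fold (95% interval 1.52 to 1.87; log2 fold change 0.75, SE 0.07, adjusted p = 4.6e-13). BBC3 encodes PUMA, a potent BH3-only protein that binds all the anti-apoptotic members, and is on the minus strand of chromosome 19 (47220822 to 47232766). It was scarce, with 4.81 and 5.37 CPM in shControl and 9.36 and 8.57 CPM in shYEATS2. Both shYEATS2 libraries were above both controls, and the rise was 1.78-fold with a wider 95% interval of 1.45 to 2.18 (log2 fold change 0.83, SE 0.15, adjusted p = 2.5e-06).

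BCL2L11, which encodes the activator BIM in several splice forms, went the other way. It lies on the plus strand of chromosome 2 (111119378 to 111168444) and had 21.6 and 22.5 CPM in shControl and 11.4 and 13.5 CPM in shYEATS2. Both shYEATS2 libraries were far below the controls, and 55.5% of the control level remained by the fitted change (log2 fold change −0.85, SE 0.11, 95% interval −1.06 to −0.64, adjusted p = 4.9e-10). Of the tested genes, 6.24% had a larger fall. The antisense host gene MIR4435-2HG shares 727 exon bases with it, or 10.8% of its exon length, and was called higher (log2 fold change 0.51, SE 0.08), the opposite direction.

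BAD is a BH3-only protein that is silenced by growth-factor-dependent phosphorylation and acts on BCL-XL and BCL2. Its gene (chromosome 11, minus strand, 64269830 to 64284704) had 36.3 and 36.3 CPM in shControl and 30.9 and 29.3 CPM in shYEATS2. The conditions did not overlap, and 83.3% of the control level remained (log2 fold change −0.26, SE 0.08, 95% interval −0.43 to −0.10, adjusted p = 0.0068). This call depended on the setting, as it was lost with library totals alone (−0.13, adjusted p = 0.192), without shControl replicate 1 (adjusted p = 0.073), without shControl replicate 2 (adjusted p = 0.063) and with DESeq2 (−0.28, adjusted p = 0.057), a test that called 30.5% of the genes it tested. GPR137 on the opposite strand shares 404 exon bases with BAD, or 23.7% of its exon length, and had a similar fall (log2 fold change −0.24, SE 0.09, adjusted p = 0.023). The strand setting of the authors' counting is not given in the sources used here, so reads from BAD and GPR137, and those from the other antisense pairs, may not have been fully separated.

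BID links death receptors to mitochondria once caspase-8 has cleaved it, and its gene is on the minus strand of chromosome 22 (17734138 to 17774770). Its level was 39.6 and 37.7 CPM in shControl and 45.2 and 39.7 CPM in shYEATS2. The lower shYEATS2 library was next to the higher control, and the difference was not called (log2 fold change 0.15, SE 0.08, 95% interval −0.01 to 0.31, adjusted p = 0.119). It was called with library totals alone (0.28, adjusted p = 0.0043) and without shYEATS2 replicate 2 (0.22, adjusted p = 0.0080), and was 0.025 without shYEATS2 replicate 1. Over the 10 members, 5 had both shYEATS2 libraries above both controls and 4 had both below. Such a separation was found for 71.6% of all tested genes and is no evidence of a change by itself.

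**Figure D2:**
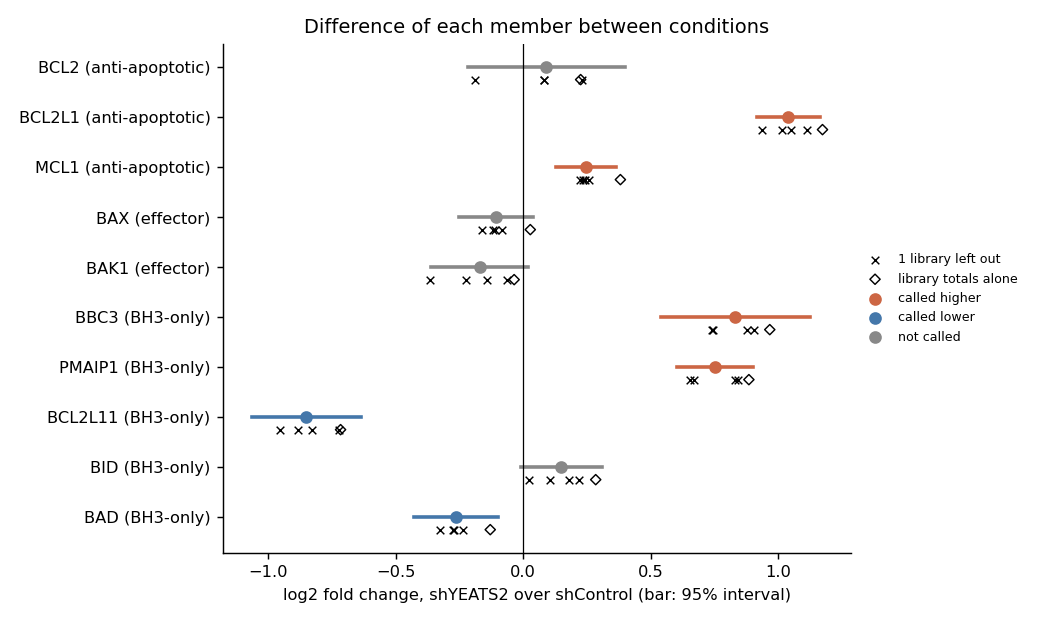
Log2 fold change of each member, shYEATS2 over shControl, with its 95% interval from edgeR (circle and bar; orange, called higher; blue, called lower; grey, not called), and below it the values with 1 library left out (crosses) and with library totals alone (diamonds). BCL2L1 at 1.04, BBC3 at 0.83, PMAIP1 at 0.75 and BCL2L11 at −0.85 stay clear of 0 in each of these, while BAX, BAK1, BCL2 and BID lie near 0.

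To compare levels between genes, CPM were divided by the merged exon length of each gene in kilobases. In shControl the order of these per-kilobase levels was MCL1 (37.8), BCL2L1 (28.8), BAX (22.3), BAD (21.3), PMAIP1 (20.9), BAK1 (11.4), BID (8.74), BCL2L11 (3.27), BBC3 (1.60) and BCL2 (0.486). BAD and PMAIP1 could not be ordered, because their shControl libraries overlapped. In shYEATS2 the order began with BCL2L1 (59.0), MCL1 (44.8) and PMAIP1 (35.4), so BCL2L1 passed MCL1 in both libraries and PMAIP1 passed BAX and BAD. BAK1 (9.91) and BID (9.60) overlapped there, and BBC3 (2.81) stood above BCL2L11 (1.85). The merged length counts exons of every annotated isoform, so a level per kilobase is a rough guide where a short isoform predominates.

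Of the summed per-kilobase level of the 10 members, the anti-apoptotic genes made up 43.0% and 42.7% in shControl and 52.2% and 50.9% in shYEATS2. BCL2L1 alone took 18.5% and 18.3% in shControl and 30.3% and 28.0% in shYEATS2. The share of the effectors was lower, at 21.6% and 21.4% against 15.6% and 14.6%, and that of the BH3-only genes was lower by little, at 35.4% and 35.9% against 32.2% and 34.4%. Within the BH3-only group PMAIP1 went from 12.7% and 14.0% to 16.2% and 18.9%, and BCL2L11 from 2.08% and 2.10% to 0.822% and 1.01%. These shares do not depend on the scaling of the libraries, but a rise of BCL2L1 by itself lowers the shares of the others. Before division by the total, the summed level per kilobase of the BH3-only genes was higher, at 54.5 and 57.1 in shControl and 66.3 and 68.3 in shYEATS2. That of the effectors was 33.2 and 34.0 against 32.0 and 29.0, and that of the anti-apoptotic genes 66.2 and 67.9 against 108 and 101.

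**Figure D3:**
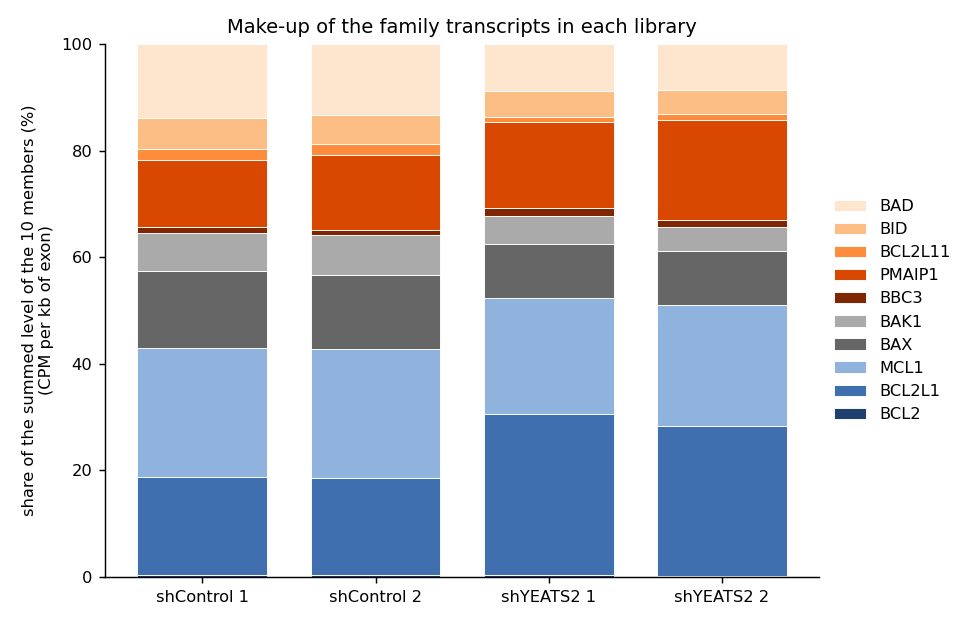
Share of each member in the summed level of the 10 members (CPM per kilobase of exon, in percent, stacked to 100) in each of the 4 libraries. The segment of BCL2L1 widens from 18.5% and 18.3% in shControl to 30.3% and 28.0% in shYEATS2.

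Ratios between members within a library are free of scaling too. They were taken for 7 pairs of members, chosen after the values were seen. Apart from BCL2L1 and MCL1, which are both anti-apoptotic and were both higher, the members of a pair bind each other or moved in opposite directions. The ratio of BCL2L1 to MCL1 per kilobase was 0.761 and 0.762 in shControl and 1.40 and 1.23 in shYEATS2. BCL2L1 stood to BAX at 1.28 and 1.30 in shControl and at 2.95 and 2.77 in shYEATS2. The widest difference was in BCL2L1 to BCL2L11, with 8.86 and 8.74 in shControl and 36.8 and 27.8 in shYEATS2, a ratio of the means of 3.67. PMAIP1 rose relative to its partner MCL1, from 0.524 and 0.584 to 0.746 and 0.832. Among the BH3-only genes, BBC3 to BCL2L11 went from 0.471 and 0.506 to 1.74 and 1.34, so per kilobase BBC3 was below BCL2L11 in shControl and above it in shYEATS2. A crossing of 1 depends on the exon lengths used. In CPM, before that division, BBC3 stayed below BCL2L11 in both shYEATS2 libraries (means 8.96 and 12.4). BCL2L1 likewise stayed below MCL1 (means 247 and 279). All 7 ratios were higher in both libraries of shYEATS2 than in both of shControl. This direction was set by the choice, since the member with the higher log2 fold change was put first in each pair. Pairs also share members, so the 7 are not separate results. Each had a two-sided exact permutation p of 0.333, the smallest that 2 libraries against 2 allow, before and after adjustment over the 7.

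**Figure D4:**
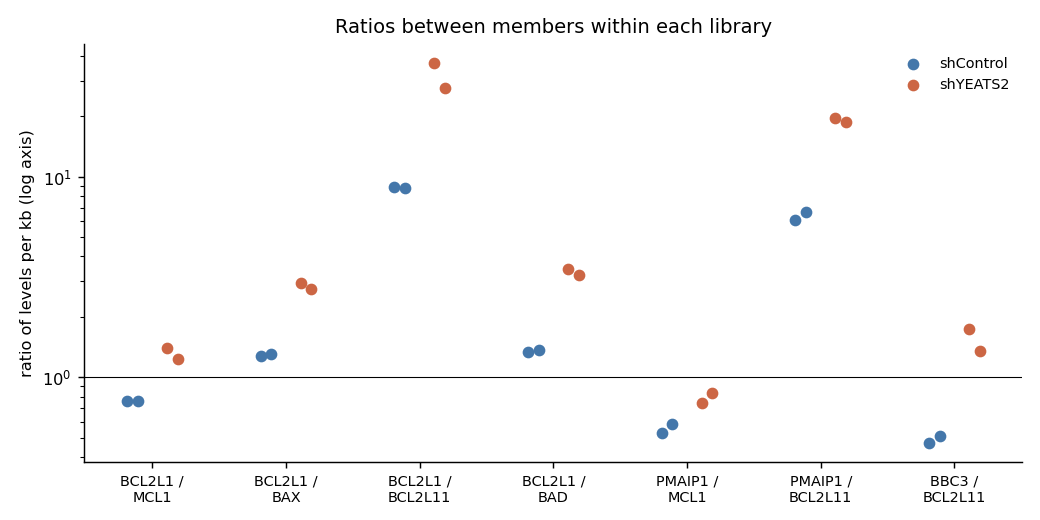
Ratio of the per-kilobase levels of 7 pairs of members in each library, on a log axis (blue, shControl; orange, shYEATS2; each point is 1 library; the line marks a ratio of 1). BCL2L1 to MCL1 crosses 1, from 0.761 and 0.762 to 1.40 and 1.23, as does BBC3 to BCL2L11. Neither ratio crosses 1 in CPM without division by exon length.

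Promoters of the members, from 250 bases before to 50 bases after the start of transcription, were read from RefSeq (GRCh38.p14). Windows were found for 9 of the 10 genes, 15 windows in all, and not for MCL1. The motifs described here, searched on both strands, are the core of the cAMP response element bound by ATF and CREB factors (TGACGT), the core of the C/EBP-ATF response element (TGATGNAA) and a forkhead site (TGTTTAC). Of all 35116 promoter windows, 7.98%, 3.62% and 3.42% held these motifs, in that order. The stretches of 30 bases shown hold the matches in PMAIP1 and BAD, which moved in opposite directions, and in BCL2L11, whose promoter is known as a target of forkhead factors. Capitals mark the match and the strand is that of the gene.

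PMAIP1, chr18:59899928-59899957, plus strand: tctagtttccctACGTCAccagggaagttc
BAD, chr11:64284741-64284770, minus strand: gacctacccgagTGACGTtccgagaggtga
BCL2L11, chr2:111120680-111120709, plus strand: gagttactccgGTAAACAcgccagggacgg

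The cAMP response core was found on the strand opposite to the gene in PMAIP1, 56 bases before the start, and in BAD in a stretch that both of its windows share. The forkhead match of BCL2L11 lay 223 bases before the RefSeq start of its window, on the opposite strand. It is inside the span of the gene given above, which is from GENCODE and begins further upstream. The C/EBP-ATF core was found in none of the 15 windows. A match describes these letters only and is neither a binding site nor a cause, and a window without one says nothing of the factor.

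Around the family, 7 lists of genes of the same pathway held 79 genes, of which 65 were tested, 20 were higher and 18 were lower (58.5%, beside 46.2% of all tested genes). Their median log2 fold change was −0.03. The 14 genes not tested had at most 13 counts in a library, and among them were the anti-apoptotic BCL2A1 and BCL2L10 and the BH3-only BIK and HRK.

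Of the 14 other relatives of BCL2, 7 were tested, with 2 higher and 3 lower. BCL2L13, a mitochondrial relative with a role in mitophagy, rose from 67.3 ± 0.195 to 111 ± 4.74 CPM (SD, n = 2 each; log2 fold change 0.72, SE 0.07, adjusted p = 8.1e-15). BOK, an effector-like member, had a log2 fold change of 0.42 (SE 0.10), and BNIP3, a mitophagy receptor of the outer membrane, one of −0.60 (SE 0.06). BMF, a BH3-only gene named after its values were seen, had the largest change in this list, from 11.2 ± 0.550 to 4.03 ± 0.662 CPM (SD, n = 2 each; log2 fold change −1.43, SE 0.15, adjusted p = 1.1e-12).

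Downstream of the mitochondria, the 13 genes of the apoptosome and the caspases had 3 higher and 3 lower. CYCS, which encodes the cytochrome c that BAX and BAK1 release, fell from 895 ± 61.7 to 695 ± 34.8 CPM (SD, n = 2 each; log2 fold change −0.37, SE 0.06, adjusted p = 4.3e-07). The initiator CASP2 fell by 0.75 (SE 0.07) on the log2 scale. The 3 higher genes, named after their values were seen, were CASP10 (0.93, SE 0.18), CASP9 (0.35, SE 0.13) and CASP8 (0.21, SE 0.08). Of the inhibitor-of-apoptosis genes and their antagonists, 4 of 8 tested were called higher and the other 4 were not called. BIRC3, an NF-κB target that encodes the ubiquitin ligase cIAP2, had 42.9 and 45.2 CPM in shControl and 118 and 135 CPM in shYEATS2, with a log2 fold change of 1.52 (SE 0.07, adjusted p = 1.2e-28). BIRC5 (survivin) and XIAP, the direct caspase inhibitor, had log2 fold changes of 0.43 (SE 0.06) and 0.25 (SE 0.06), both called higher. DIABLO, an antagonist named after its values were seen, was also called higher (0.99, SE 0.31, adjusted p = 0.0065), with at most 60 counts in a library.

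At the cell surface, 9 of 12 genes of the death-receptor pathway were tested, with 3 higher and 4 lower. TNFRSF10A, a receptor for TRAIL, and CFLAR, which blocks caspase-8 at the receptor, were called higher with log2 fold changes of 0.45 (SE 0.08) and 0.40 (SE 0.06). The adaptor TRADD was called lower with −0.39 (SE 0.10). Of 5 genes for proteins on which BAX, BAK1 and BID dock or with which they work, 3 were called lower and 2 were not called. The 3 were MTCH2, a receptor of truncated BID (−0.43, SE 0.06), BCAP31 (−0.41, SE 0.06) and VDAC1 (−0.33, SE 0.06). Of 7 tested genes for the turnover of MCL1, 2 were higher and 1 was lower. The kinase GSK3B, which marks MCL1 for degradation, had a log2 fold change of 0.26 (SE 0.06), and HUWE1, a ubiquitin ligase of MCL1, one of −0.20 (SE 0.06).

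Of 16 tested regulators that act on BH3-only genes, 6 were higher and 4 lower. The largest rises in this list were in genes of the stress response. DDIT3, which encodes CHOP, rose from 11.9 ± 0.222 to 48.3 ± 1.76 CPM (SD, n = 2 each; log2 fold change 2.03, SE 0.09, adjusted p = 5.4e-30), and TRIB3, a target of CHOP, had a log2 fold change of 2.26 (SE 0.08). ATF4, which acts upstream of both, rose from 187 ± 2.15 to 394 ± 17.5 CPM (SD, n = 2 each; log2 fold change 1.08, SE 0.06, adjusted p = 5.6e-25). The other genes called higher, named after their values were seen, were MYC, JUN and CEBPB. MYC rose about as much as ATF4, with a log2 fold change of 1.06 (SE 0.07), and JUN and CEBPB had 0.58 (SE 0.07) and 0.26 (SE 0.07). FOXO3, a forkhead activator of BCL2L11, was not called (0.13, SE 0.06, adjusted p = 0.093). The other forkhead factor of the list, FOXO1, named after its values were seen, fell from 51.9 ± 3.34 to 36.2 ± 1.67 CPM (SD, n = 2 each; log2 fold change −0.53, SE 0.08, adjusted p = 6.4e-08). E2F1, a cell-cycle factor, was called lower (−0.21, SE 0.08, adjusted p = 0.020). What these factors contributed to the levels of the family was not tested.

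**Figure D5:**
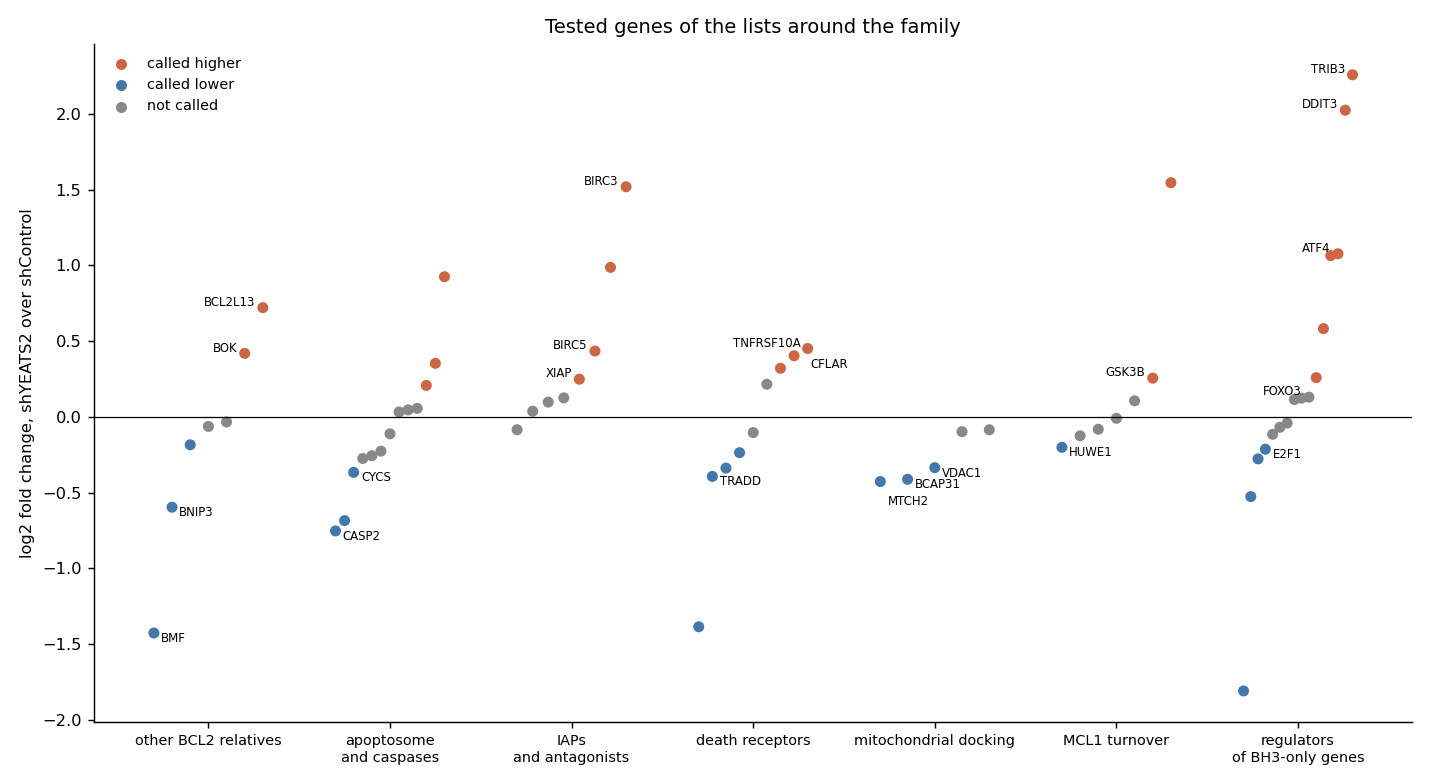
Log2 fold change, shYEATS2 over shControl, of the 65 tested genes in the 7 lists around the family, each point 1 gene (orange, called higher; blue, called lower; grey, not called), with the names of most of those described. TRIB3, DDIT3 and BIRC3 stand highest among the genes labelled in the figure, and BMF lowest. Points without a label lie above BIRC3 and below BMF.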

How the data were processed

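The authors prepared stranded mRNA libraries, aligned read pairs with STAR (genome build GRCh38) and used HTSeq for counting, per the labels and the methods of the study. The deposited values are whole-number counts per Ensembl gene, without normalization. For the counting, neither strand setting nor annotation release is named, and the STAR version is likewise not given in the sources used here. Read pairs that fell on no gene, on several genes or at several places, between 15.3% and 16.5% of those tallied, were left out.

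The groups were taken from the treatment and titles in the labels. Genes were kept by filterByExpr, scaled by TMM and compared by the quasi-likelihood functions of edgeR 4.0.16 under R 4.3.3 (glmQLFTest after a robust glmQLFit), with Benjamini-Hochberg adjustment over 17058 genes and a threshold of 0.05. The quasi-likelihood test shares variance across genes. It was also run on simulated data with the same dispersion for every gene and few changed genes. These data differ in both, so that run does not measure the error of the calls here. Fold changes are from this fit, and 95% intervals cover its error only. Positions and exon lengths are from GENCODE 44, which held 60295 of the 60623 gene rows. DESeq2, which the study used without giving its version, served as an alternative (here version 1.42.0). The others were other scalings and filters, a replicate block, thinning to the smallest total and leaving out each library. All 10 members were named, with up to 3 called genes of at least 10 CPM per list by size of change, and the regulators ATF4, DDIT3, FOXO3 and E2F1. Some genes that this rule names are not reported here. Members and lists were chosen with earlier results of these data known, and the promoter motifs after the values were seen.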

Additional observations from a re-analysis of the deposited data

How the results depend on the processing

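Of 121 log2 fold changes of the members and YEATS2 under 11 alternatives, 112 kept their direction and their side of the threshold, and BCL2L1, MCL1, BBC3, PMAIP1 and BCL2L11 did so in each. The members called lower were 1 in place of 2 with library totals alone and with DESeq2, and from 1 to 3 when 1 library was left out, where the lone library of a condition is assumed to vary like the other group. BAX turned to 0.028 with library totals alone, and BCL2 ranged from −0.19 to 0.23 with 1 library left out. The cause was not tested. Over all genes, DESeq2 called 2392 higher and library totals alone called 2567 lower. Replicate numbers do not pair the libraries by any label (correlation of −0.018 between the replicate differences of the conditions). With a replicate block, 4 members were higher and 2 lower, and 3870 and 4142 genes. Thinning kept the calls of the members. Depth limits BCL2 and BBC3, with 64 and 101 counts in the shallowest library.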
